A study of Homo sapiens with 6 samples.

Results

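The 24 h-only regions were the H3K4me2 peaks of LNCaP cells that were listed after 24 h of GSK2879552 and overlapped no peak of the vehicle list and no peak of the list for 4 h of GSK2879552. They were chosen by pooling the peaks of the 3 lists on chromosomes 1 to 22, merging those that shared at least 1 bp, and keeping the merged regions that held a GSK 24 h peak alone. They numbered 20809 of 147111 merged regions (14.1%) and covered 6.62 Mb. The rule used the peak calls themselves, so calling values of these regions (summit height, fold enrichment, p and q) are given as descriptions.

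H3K4me2, histone H3 with a dimethylated lysine 4, marks promoters and enhancers, including enhancers that are poised and not yet active. LSD1 (KDM1A) removes methyl groups from mono- and dimethylated lysine 4, and works with partner proteins such as CoREST in repressive complexes. In prostate cancer cells LSD1 is also found with the androgen receptor. GSK2879552 is an irreversible inhibitor of its catalytic activity.

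LNCaP is an androgen-responsive prostate cancer cell line. The 6 ChIP-seq samples formed 3 groups of 2 replicates: vehicle, GSK2879552 for 4 h (GSK 4 h) and GSK2879552 for 24 h (GSK 24 h), all in cells kept for 3 days in medium with 5% charcoal-stripped serum. The treatment label of both GSK groups also names the androgen DHT and that of the control does not, whereas the treatment protocol and the study's own text speak of the inhibitor alone. If the labels hold, effects of androgen and of inhibitor cannot be told apart. Both replicates of a group had been combined into 1 list, so no difference below could be set against replicate spread, and the intervals (Wilson, 95%) cover counting error only.

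Being absent from a list means that no peak was called there, not that the mark was absent, and a list carries no value for a region it lacks. The lists therefore do not show when the mark appeared at these regions, and "24 h-only" describes the lists. The lists rested on similar depth, at 9.43 (vehicle), 10.1 (GSK 4 h) and 8.98 (GSK 24 h) tags per kb of the genome, as derived from the peak values. On the autosomes they held 97240, 124364 and 123292 regions.

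Of all GSK 24 h regions, 16.9% were 24 h-only (20809 of 123292, interval 16.7 to 17.1). The mirror class, GSK 4 h regions in neither of the other lists, was of like size at 17.2% (21352 of 124364). A further 16137 merged regions were in both GSK lists but not in the vehicle list, and 8051 were in the vehicle list only. The like size of the 24 h-only and 4 h-only classes depended on the calling limit. With every list limited to -log10 q values from 5 up, they held 11504 and 16447 regions. Since all these classes are set against the same lists, their sizes are not independent of each other.

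The 24 h-only regions were weak and narrow peaks. The summit of the median region was covered by 12 fragments, with quartiles of 10 and 15 and a range from 7 to 310. This was 6.10 times the genome-wide background of 1.97 fragments. Regions of the GSK 24 h list that were also called at 4 h but not under vehicle had a median of 14 fragments, those shared with vehicle alone 16, and those in all 3 lists 30. The 4 h-only regions had the same median of 12 in their own list.

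Width followed the same order. The median 24 h-only region was 279 bp wide (quartiles 232 and 361), against 350 bp for regions of both GSK lists and 658 bp for regions of all 3 lists. In 17.02% of the 24 h-only regions the width was the shortest that the list holds, 219 bp, compared with 1.44% of the regions in all 3 lists. The median fold enrichment, a ratio of the summit over its local background, was 3.91 (quartiles 3.37 and 4.38) and ranked at percentile 27.8 of the list. Regions of both GSK lists ranked at 32.2 and regions of all 3 lists at 63.2.

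The share of GSK 24 h regions that were 24 h-only fell as significance rose. It was 51.6% of the 6414 regions with a -log10 q under 3 and 39.7% of those from 3 to 5. It fell to 16.0% from 5 to 10 and to 2.62% from 10 to 15. Above 20 it came to 2 of 21137 regions (0.00946%). Among the 24 h-only regions, 6599 (31.7%) had a -log10 q of at least 5 and 551 (2.65%) of at least 10. For the 4 h-only regions these shares were higher, at 40.3% and 3.25%. For the regions in all 3 lists they were 88.4% and 60.6%.

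**Figure D1:**
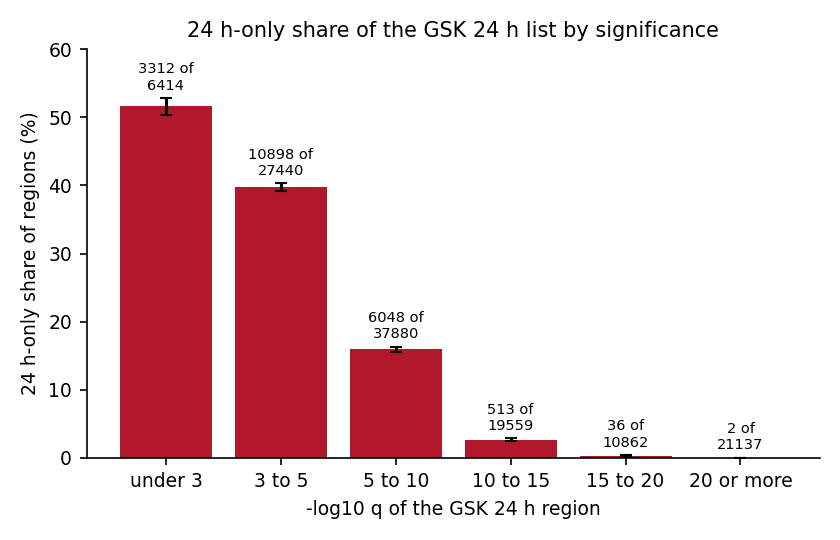
Share of GSK 24 h regions that were 24 h-only (%, y axis) by the -log10 q of the region (x axis, in bins), with Wilson 95% intervals and the counts above each bar. The share fell from 51.6% in the lowest bin to 0.00946% in the highest, a description since q takes part in the calling.

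Set against the other lists, the 24 h-only regions stood below the median peak. At the same height over background and at the depth of the vehicle list, 5.08% of them would have had a -log10 p above the median of that list (11.2). For the GSK 4 h list the share above the median (10.8) was 3.61%. Nearly all would have reached the lowest -log10 p of these lists, at 99.94% for vehicle (3.00) and 100% for GSK 4 h (2.95). This was largely fixed in advance and gives no support by itself. The regions had already passed a similar limit in their own list (2.92), and the depths were similar. The first quartile would have been reached by 40.27% and 28.15%. These shares assume an equal height, which the other lists do not give for these regions.

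The edge of the rule was soft. Of the 24 h-only regions, 12 touched a region of another list without sharing a base, 184 lay within 10 bp and 833 (4.00%) within 50 bp. Just inside the rule were chr1:48675384-48675737 (hg19), which touched a vehicle region (-log10 q of 2.98, 12 fragments), and chr1:161802474-161802732, which touched a GSK 4 h region (2.63, 9 fragments). A further region of this kind, chr1:236172580-236173176, touched a GSK 4 h region as well (5.69, 16 fragments). Just outside, sharing 1 bp with another list, were chr10:79298900-79299118 (3.75, 11 fragments), chr11:48076439-48076716 (4.39, 28 fragments) and chr12:130882456-130882697 (3.04, 12 fragments). The values on both sides of the edge overlapped.

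Most 24 h-only regions lay apart from vehicle regions. The median gap to the nearest vehicle region was 9467 bp (quartiles 1892 and 24744), and the largest was 1001086 bp. Within 5 kb of a vehicle region were 7384 (35.5%, interval 34.8 to 36.1). This share was 38.8% (38.0 to 39.5) for regions of both GSK lists and 42.7% (42.0 to 43.3) for the 4 h-only regions, so the 24 h-only share was the lowest of the 3. The intervals did not overlap, but they leave out replicate spread. Other settings moved the 24 h-only share within 5 kb to between 16.8% and 44.8%. The shares of the other classes were not recomputed under those settings.

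With the gap taken to the nearest region of either other list, near and far 24 h-only regions could be set apart. In bins of equal ratio, 1919 regions had a gap of 250 to 500 bp and 1315 one of 500 to 1000 bp. The numbers then rose again, to 1929 from 2.5 to 5 kb, 3328 from 5 to 10 kb and 3251 from 10 to 20 kb. The gaps were thus not spread around a single value, and 6979 regions (33.5%) lay within 1 kb.

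**Figure D2:**
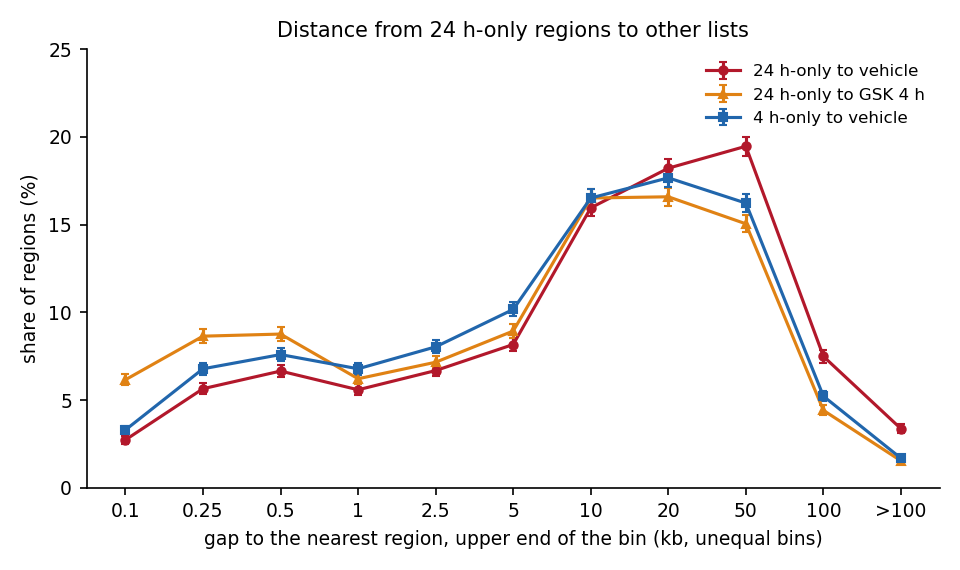
Share of regions (%, y axis, Wilson 95% intervals) by gap to the nearest region of the named list (x axis, upper end of each bin in kb, bins of unequal width), for 24 h-only regions to the vehicle list and to the GSK 4 h list and for 4 h-only regions to the vehicle list. The 24 h-only regions reached farther from vehicle regions than the 4 h-only regions did, with 35.5% and 42.7% within 5 kb.

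Near and far regions differed in height. The 10447 regions within 5 kb of another list (50.2%) had a median of 14 fragments at the summit, and included all 422 regions with at least 40. The 10362 regions farther away had a median of 11 fragments, and none exceeded 33. Low backgrounds were the rule among the far regions: 26.9% (26.0 to 27.8) of the near regions sat at the genome-wide background against 86.9% (86.2 to 87.5) of the far ones. The local background was counted in 10 kb around the summit, so neighbouring peaks raise it by construction. A peak on a higher background also needs more fragments to be called. Other measures did not follow the order of height. The median fold enrichment was 3.71 near and 4.05 far, and the median -log10 q 4.30 and 4.05. A -log10 q of at least 10 was reached by 2.53% of the near and 2.77% of the far regions.

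The regions next to a vehicle peak flanked peaks that were themselves small. Within 1 kb of a vehicle region were 4293 24 h-only regions beside 4176 vehicle regions, and the median distance between the summits was 703 bp. Those vehicle neighbours had a median of 18 fragments and a width of 388 bp, compared with 23 fragments and 476 bp for all vehicle regions. Of these neighbours, 82.6% shared a merged region with a GSK 24 h region, against 87.2% of all vehicle regions. Most of these vehicle neighbours thus lay in a merged region that was called at 24 h as well.

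At the other extreme, 1012 regions (4.86%, interval 4.58 to 5.16) lay over 50 kb from every vehicle and every GSK 4 h region. The corresponding share of 4 h-only regions, measured to the vehicle and GSK 24 h lists, was 2.41% (2.21 to 2.63). The highest of these remote summits held 27 fragments, 93.0% sat at the genome-wide background, and 33 had a -log10 q of at least 10.

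The 24 h-only regions were next counted by how many vehicle regions surrounded them. In 2734 windows of 1 Mb they averaged 7.61 ± 3.66 (SD over windows), and 17 windows held none. The 4 h-only regions averaged 7.81 ± 4.55, and 53 windows held none. In windows with at most 5 vehicle regions there were 4.49 ± 3.28 24 h-only regions (79 windows), against 1.78 ± 1.48 4 h-only regions. The number of 24 h-only regions rose to 8.79 ± 3.52 in windows with 41 to 60 vehicle regions and was 7.09 ± 3.27 in those with at least 81 (107 windows). The 4 h-only regions numbered 10.5 ± 4.01 and 11.3 ± 3.99 in the same windows. The 24 h-only regions were thus the more numerous class in sparse windows and the less numerous in dense ones. Over the windows, Spearman's rho with the vehicle count was 0.25 for 24 h-only, 0.68 for 4 h-only and 0.72 for vehicle-only regions, a description of windows of the same libraries.

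As a share of their list, the 24 h-only regions fell from sparse to dense surroundings. Such a fall is to some extent built in. The rule removes regions called under vehicle, and the surroundings are counted from the same vehicle list. Both GSK shares carry this built-in part by the same rule, so they are set side by side. Its size was not measured. Among GSK 24 h regions with at most 5 vehicle regions within 500 kb on each side, 49.3% were 24 h-only (371 of 752, interval 45.8 to 52.9), and where at least 81 lay that near 7.28% (6.80 to 7.80). The 4 h-only share of GSK 4 h regions was 27.3% (23.5 to 31.4) and 10.7% (10.1 to 11.3). GSK 24 h regions shared with the GSK 4 h list only fell too, from 21.5% (18.8 to 24.6) to 7.34% (6.86 to 7.86). The intervals of the 24 h-only and 4 h-only shares did not overlap at either end.

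Sparse surroundings held more weak peaks: 49.2% of GSK 24 h regions there had at most 12 fragments, against 6.52% in the densest. The shares were therefore also taken among peaks of like height. Among GSK 24 h regions with at most 12 fragments, the 24 h-only share was 68.1% (63.2 to 72.7) in the sparsest and 38.0% (34.4 to 41.7) in the densest surroundings. The 4 h-only share at this height was 45.1% (38.8 to 51.5) and 47.1% (43.5 to 50.6), intervals that overlapped. The vehicle-only share of vehicle regions ran the other way, from 16.4% (9.42 to 27.1) to 38.9% (34.6 to 43.4).

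Higher peaks gave a similar order up to 20 fragments. With 13 to 20 fragments the 24 h-only share was 41.1% (35.5 to 46.9) in the sparsest and 16.6% (14.8 to 18.6) in the densest surroundings. The 4 h-only share was 17.3% (12.4 to 23.7) and 22.6% (20.7 to 24.8), intervals that overlapped. The vehicle-only share was 15.1% (9.79 to 22.7) and 20.8% (18.9 to 22.8). Above 20 fragments the 24 h-only share was 3.92% (1.54 to 9.65, 4 of 102) and 3.15% (2.79 to 3.55), and these intervals overlapped as well. The 4 h-only share above 20 fragments was 0% (0 to 4.14, 0 of 89) and 5.19% (4.74 to 5.69), without overlap. The vehicle-only share was 2.63% (0.725 to 9.10) and 4.53% (4.09 to 5.02), with overlap. The 3 classes thus did not move alike from sparse to dense surroundings at up to 20 fragments, and above 20 the sparsest bins were small.

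**Figure D3:**
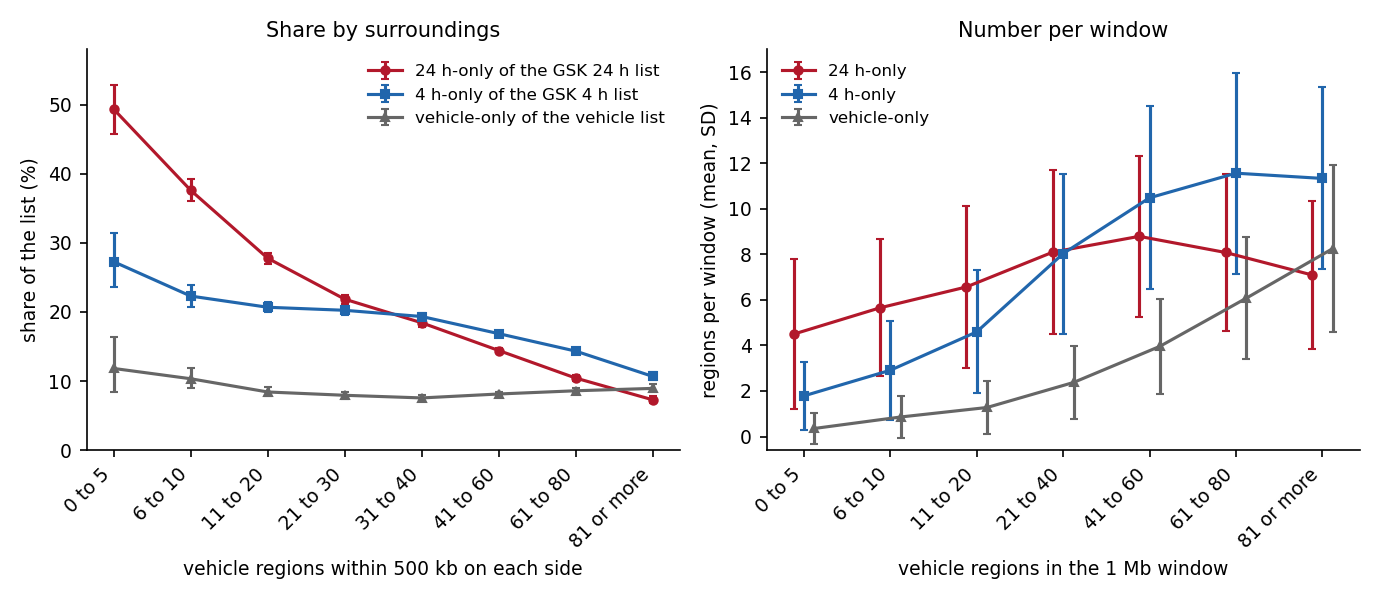
Left, share of each list that no other list held (%, y axis) by the number of vehicle regions within 500 kb on each side (x axis), with Wilson 95% intervals. Right, number of such regions per 1 Mb window (mean and SD over windows, y axis) by the number of vehicle regions in the window (x axis). The 24 h-only share fell from 49.3% to 7.28%, which is to some extent built in, while their number per window lay between 4.49 and 8.79.

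The local background moved with the surroundings too. Regions of all 3 lists were matched by their summits (within 150 bp). Those at the genome-wide background in any list were left out, which left 27532 matched regions. They are thus a selected part of the shared regions, here and in the chromosome values below. The GSK 24 h local background, relative to its genome-wide level, was set against that of the GSK 4 h list. The median log2 ratio was 0.12 with 6 to 10 vehicle regions around (189 matched regions). It was -0.19 with at least 81 (3524 matched regions). Against the vehicle list the median log2 ratio was 0.24 and 0.04 in the same bins, with the highest value, 0.33, at 21 to 30. At these shared regions, the GSK 24 h background thus stood above the GSK 4 h background in sparse and below it in dense surroundings. Across the 22 chromosomes, the 24 h-only share rose with the median log2 background ratio of GSK 24 h over vehicle (Pearson's r = 0.94, Spearman's rho = 0.92). For the ratio over GSK 4 h both values were 0.89. These describe chromosomes of the same libraries, and the part of this background in the 24 h-only counts was not tested.

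Chromosomes differed as well. The 24 h-only share of GSK 24 h regions was lowest on chromosome 19 (7.16%, interval 6.41 to 7.999, 289 regions), followed by chromosomes 22 (11.2%), 17 (11.5%) and 16 (11.6%). It was highest on chromosomes 13 (22.1%, 20.7 to 23.6, 717 regions) and 4 (21.8%, 20.9 to 22.9, 1414 regions). The 4 h-only share ranged from 11.04% to 20.3%. Across the 22 chromosomes both shares fell with the number of vehicle regions per Mb (Pearson's r = -0.93 and Spearman's rho = -0.88 for 24 h-only, -0.84 and -0.82 for 4 h-only), and here too a fall is built in. The number of regions per Mb, which is free of this denominator, gave r = -0.40 and rho = -0.11 for 24 h-only and 0.70 and 0.79 for 4 h-only regions. These values describe chromosomes of the same libraries.

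The difference between the GSK classes also changed sign between chromosomes. There were 1.25 24 h-only regions for each 4 h-only region on chromosome 4 and 0.628 on chromosome 19. The 24 h-only class was the larger on 8 chromosomes and the smaller on 14. Within chromosomes, the 24 h-only share was higher in the sparser part of the GSK 24 h regions, split by vehicle regions within 500 kb, by 2.16 to 13.2 percentage points. The 4 h-only share, which carries the same built-in fall, was higher by 1.22 to 6.60 points, and the 24 h difference was the larger on 19 of 22 chromosomes.

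**Figure D4:**
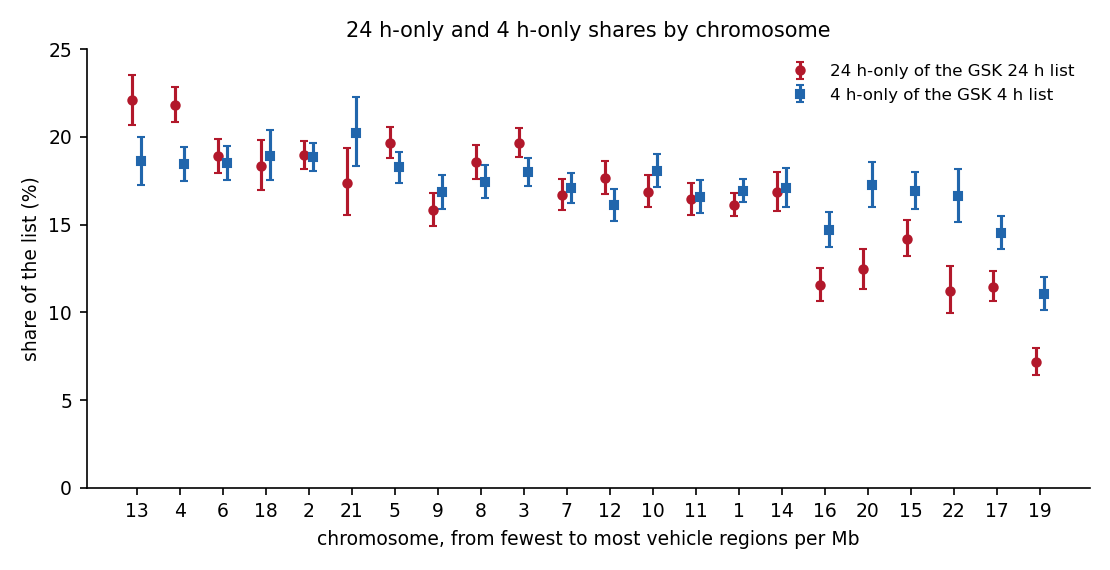
Share of GSK 24 h regions that were 24 h-only and of GSK 4 h regions that were 4 h-only (%, y axis, Wilson 95% intervals) on the 22 autosomes, ordered from the fewest to the most vehicle regions per Mb (x axis). The 24 h-only share ran from 22.1% on chromosome 13 to 7.16% on chromosome 19.

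The windows richest in 24 h-only regions were of different kinds. By number, chr10:93000001-94000000 and chr21:17000001-18000000 each held 22, among 74 and 93 GSK 24 h regions. By share, chr2:141000001-142000000 led, where 10 of 11 GSK 24 h regions (90.9%) were 24 h-only and the vehicle list held 1 region. The first kind lay in well-marked stretches, and the second in a stretch with almost no H3K4me2 called under vehicle.

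The most significant 24 h-only region was chr13:53108674-53109792, with a -log10 q of 20.8, 30 fragments at the summit and a fold enrichment of 9.40 (percentile 96.7 of the list). It was 1119 bp wide, and its nearest vehicle and GSK 4 h regions lay 15657 and 15524 bp away. The next, chr3:110225946-110226626, had a -log10 q of 20.02 and 33 fragments. It lay 66140 bp from a vehicle region and 11299 bp from a GSK 4 h region, but only 61 bp from the next GSK 24 h region. These were the only 24 h-only regions with a -log10 q of at least 20.

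The following ranks mixed isolated with flanking peaks. The region chr7:141788180-141788914 had the highest fold enrichment of all 24 h-only regions, 9.44, with 27 fragments at the genome-wide background, and lay over 100 kb from both other lists (102009 and 101847 bp). In contrast, chr3:171756754-171757289 (-log10 q of 19.4, 50 fragments) lay 441 bp from a vehicle and 183 bp from a GSK 4 h region. The region chr3:150125332-150125809 (19.0, 77 fragments) lay 555 and 406 bp away. In the latter the local background was 20.3 fragments, and its fold enrichment of 3.66 ranked at percentile 19.5 only. Local background among these 5 regions ran from the genome-wide 1.97 to 20.3 fragments.

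The highest fold enrichments were found on low backgrounds. After the regions on chromosomes 7 and 13 came chr1:245564747-245565279 and chr9:20611950-20612506, each with a fold of 9.10 and 26 fragments, and chr1:80216531-80217107 with 8.77 and 25. The first and the last lay 93476 and 53516 bp from a vehicle region, but 7864 and 4417 bp from a GSK 4 h region. The one on chromosome 9 lay 7715 bp from a vehicle and 4993 bp from a GSK 4 h region.

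Among remote regions, over 50 kb from both other lists, the most significant after chromosome 7 were chr14:82918823-82919222 (-log10 q of 17.1, 25 fragments) and chr2:104866127-104866642 (14.99, 23 fragments). The widest 24 h-only regions were chr8:78125630-78127047 (1418 bp, 19 fragments), chr21:36788957-36790246 (1290 bp) and chr2:140258667-140259915 (1249 bp). Width and height thus picked out different regions.

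Most 24 h-only regions stood apart from each other, but not from the rest of the GSK 24 h list. Their median gap to the next GSK 24 h region of any class was 5186 bp. Whether their grouping differs from random placement was not tested. With a limit of 10 kb between neighbours, 15856 (76.2%) had no other 24 h-only region beside them, 4068 (19.5%) formed 2034 pairs, and 253 groups held 3. Larger groups were rare, with 25 of 4 regions, 2 of 5, 1 of 6 and 1 of 10. The group of 6, chr3:178672572-178684820, consisted of summits with 8 to 12 fragments and contained no region of either other list. A group of 5 at chr2:90378315-90391458 was of another kind, with 45 to 59 fragments on a local background of 19.6 to 23.96. The other group of 5, chr3:154423500-154440193, had 9 to 19 fragments.

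The group of 10 lay in a regular array. It spanned 27.2 kb at chr1:228748998-228776244, with 12 vehicle and 12 GSK 4 h regions inside its limits and 1 more of each at its start. The 24 h-only summits there held 96 to 135 fragments on a local background of 58.3 to 60.97, so fold enrichments were low (1.61 to 2.19). Summits of successive vehicle regions were 2168 to 2316 bp apart (median 2239.5), and each of the 10 24 h-only summits lay on the higher-coordinate side of its nearest vehicle summit, by 569 to 827 bp (median 708.5). The 24 h-only summits thus lay in the intervals between vehicle peaks, at a like distance each time.

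In this stretch the vehicle list held 13 regions with their summits at 302 to 389 fragments (median 366, or 176 times the genome-wide background). The GSK 4 h list held 13 at nearly the same places, with 131 to 173 fragments (median 154, 81.8 times). No GSK 24 h region overlapped any of these, and the 10 between them had a median of 110.5 fragments, 56.2 times the background. Heights were therefore highest under vehicle, and the 24 h-only calls went with lower, displaced summits. Reads from near-identical copies cannot be assigned to a single copy, and whether this array consists of such copies was not tested.

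**Figure D5:**
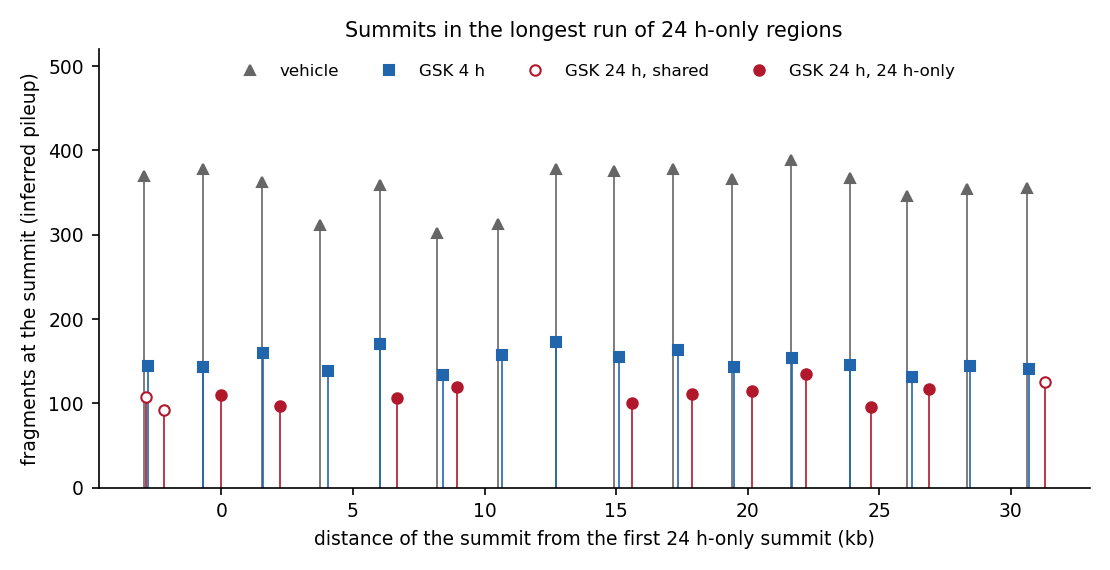
Fragments at the summit (y axis) by distance from the first 24 h-only summit (x axis, kb) in the run of 10 on chromosome 1, for vehicle, GSK 4 h and GSK 24 h regions, with open circles for GSK 24 h regions shared with another list. The 24 h-only summits, at 96 to 135 fragments, lay between regularly spaced vehicle summits at 302 to 389.

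The 5 highest 24 h-only summits, chosen after their values were seen, had fold enrichments of 1.32 to 2.19. They included 3 regions on chromosome 16: chr16:46395136-46395370 (310 fragments), chr16:46404144-46404453 (287) and chr16:46388996-46389251 (254). Local backgrounds of these 3 were 191.7 to 218.2 fragments, against 1.97 genome-wide, and the first had a fold enrichment of 1.42. The others were chr2:92323575-92323890 (175 fragments on 94.5) and chr1:228771301-228771630 (135), which is in the array above. Whether the heights of these 5 summits reflect the mark was not tested.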

How the data were processed

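H3K4me2 ChIP-seq was performed on 6 LNCaP samples. The submitters' processing notes name BWA 0.7.2-r351, SAMtools 0.1.18, MACS2 2.0.10.20131216 and hg19, without settings. Both replicates of a group had been merged by the authors into a single list of peaks. Deposited are the peak positions, the fold enrichment (a ratio over background), -log10 p and -log10 q values, and a display score of about 10 times -log10 q (9.95 to 9.96).

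Summit pileups were recovered from fold and p as whole numbers (within 0.001 on the -log10 p scale) for all but 2 vehicle regions. On this reading the background is the higher of a genome-wide level and the fragments in 10 kb of the same library, with no input control. The shortest peak (221, 186 and 219 bp for vehicle, GSK 4 h and GSK 24 h) was taken as the fragment length. The recovery was right for 100% of 19860 simulated peaks, and the class and gap steps for 100% of 4499 simulated regions.

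Classes, gaps (bases between regions) and shares were computed in Python 3.11.15 (pandas 2.3.3, numpy 2.4.6), with Wilson intervals from scipy 1.17.1. Coordinates are 1-based. No test between groups was made. Named were the 5 regions highest in -log10 q and in fold, the 3 widest, the 3 most significant over 50 kb from the other lists, the 3 largest groups (a tie in the last is also given), and the 3 nearest on each side of the rule. The regions, comparisons and named lists were chosen with earlier results of these data known. No gene was assigned, since no annotation of hg19 was used here. Alternatives were stricter q thresholds, 50% overlap, equal list lengths, 1 kb merging, X and Y, and other distances, rankings and windows.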

Additional observations from a re-analysis of the deposited data

Results flagged for a closer look

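Peaks on chromosomes X and Y were outside the comparisons, and 24 h-only regions were found there as well. They numbered 861 of 3897 GSK 24 h regions on both chromosomes (22.1%, interval 20.8 to 23.4), of which 750 were on X. The vehicle-only regions, as the control list, numbered 222 of 2757 (8.05%), and the 4 h-only regions 738 of 3770 (19.6%). On the other sequences (haplotype and unplaced), 243 of 1363 GSK 24 h regions (17.8%) were 24 h-only.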

How the results depend on the processing

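The size of the 24 h-only class depended on the settings. With every list limited to -log10 q values from 5 up and the classes drawn anew, 11504 regions were 24 h-only, and from 10 up 6715. These counts include GSK 24 h regions whose match in another list fell below the limit. Of the original 24 h-only regions, 6599 and 551 reached these limits. Lists of the same length gave 12298 and merging within 1 kb gave 12837 merged regions. In the same order the share of GSK 24 h regions was 12.9%, 13.02%, 12.65% and 11.1% (13706 single GSK 24 h peaks within the 12837 merged regions), and it was 23.9% when 50% of a region had to be covered. The median fold percentile was 31.6, 49.9, 30.6 and 32.2 in that order, 32.2 with 50% overlap and 16.6 when ranked by -log10 p. The share within 5 kb of a vehicle region was 33.9%, 21.03%, 38.2% and 16.8%, 44.8% with 50% overlap, 20.6% within 1 kb and 69.7% within 20 kb. The number of 4 h-only regions was 9606 at the stricter of these q limits, 12740 with equal lengths and 12672 with 1 kb merging. At the milder limit it was 16447, against 11504 24 h-only regions. Adding X and Y moved none of these values beyond its interval or, for counts, by over 1.5 times.

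The alternatives for the surroundings were chosen after seeing the data. The sparsest share was 38.9% at the milder q limit and 45.4% with equal lengths. The densest was 4.54% and 5.04%, 6.52% with 1 Mb on each side and 9.15% when GSK 4 h regions were counted. The sparsest exceeded the densest share under each of them, an order that the rule to some extent builds in. The cause of these shifts was not tested, except that stricter lists hold fewer regions. No paired analysis was possible because the replicates of a group share a list, and for the same reason no replicate could be left out. Distances to transcription starts were not run. The median 24 h-only summit rests on 12 fragments, which limits how precisely its height is known.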
